A study of Homo sapiens with 4 samples.

Results

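The 10 regulators described here maintain epithelial identity and were followed in OVCA420 cells exposed to TGF-β1. They are the ETS factors *ELF3* and *EHF*, the Grainyhead-like factors *GRHL1* and *GRHL2*, the splicing regulators *ESRP1* and *ESRP2*, the zinc finger repressors *OVOL1* and *OVOL2*, and the Krüppel-like factors *KLF5* and *KLF4*. They were chosen by name, and all 10 were found among the 33694 genes of the count tables. The response was uneven in levels pooled over the cells of each library. *ELF3* and *KLF5* were the furthest below Ctrl at each time, *GRHL1* and *EHF* were moderately lower at 1-day, *GRHL2* stayed within counting error of Ctrl, *ESRP2* was below Ctrl beyond counting error only at 7-day, *ESRP1* and *OVOL2* were lower at 1-day and above Ctrl at 7-day, and *KLF4* was higher at every treated time point.

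OVCA420 is an established epithelial ovarian cancer cell line. Single-cell 3′ RNA-seq was performed on untreated OVCA420 cells (Ctrl) and on OVCA420 cells given TGF-β1 at 10 ng/mL for 1, 3 or 7 days, here called 1-day, 3-day and 7-day, and all were collected together. TGF-β1 was renewed and the cells were passaged during the course, and nothing else distinguished the groups in the labels. Each condition is 1 library of 1 cell line, so no difference between conditions has a replicate check, and no p-value is given.

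Of 10710 listed cells, the count matrices used here were complete for the first 3170, because each matrix ended before its last listed cell. The remaining listed cells were not analysed here, so sums and shares describe the first cells of each library in list order and not its full depth. Quality filters removed a further 26, which left 3144 cells (933 Ctrl, 937 1-day, 705 3-day and 569 7-day) with 25382817 to 32949874 unique molecular identifiers (UMIs, 1 per captured mRNA molecule) per library. The median per cell was 30270 UMIs in Ctrl and 43553 at 3-day. Levels are a gene's UMIs in a library, pooled over cells and scaled to a library total of 1000000 (CPM). Intervals in brackets are 95% counting intervals and cover counting error only. The keratins *KRT7*, *KRT8*, *KRT18* and *KRT19* and the adhesion gene *EPCAM* were abundant in every library, whereas the Müllerian factor *PAX8* stayed at or under 0.333 CPM and *WT1* had 0 UMIs, which allows up to 3 UMIs in a library. The ovarian carcinoma marker *MUC16* had 89 UMIs in Ctrl and 14, 4 and 5 after 1, 3 and 7 days. The summed level of 10 markers of immune, endothelial, stromal and red blood cells ranged from 4.28 CPM at 1-day to 10.3 CPM in Ctrl, and the part of such RNA in the results was not tested.

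During epithelial-mesenchymal transition (EMT), epithelial cells loosen their junctions and take up mesenchymal gene expression. GRHL and OVOL proteins are known to restrain this process, in part by repressing *ZEB1*, which in turn represses epithelial genes. ESRP proteins direct the epithelial splicing of transcripts such as *CD44*. ELF3, EHF and KLF5 activate genes of differentiated or proliferating epithelium, and KLF4 acts as an activator or a repressor depending on context.

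The 2 genes that were lowest relative to Ctrl, and the 1 gene that was higher than Ctrl beyond counting error at all 3 times, are shown with sequence before their start sites, since they mark the ends of the range of responses. Sequences are from RefSeq on GRCh38.p14, read 5′ to 3′ on the strand of the gene, and 5 of the 10 genes matched an entry. The 250 bases before each start were searched on both strands for CACCTG (an E-box bound by SNAI and ZEB repressors), CAGACA (a SMAD box), AACNNGTT (a Grainyhead motif) and GGGCGG (a GC box, bound by SP and KLF proteins). These letters occurred in 17.5%, 13.6%, 3.00% and 42.6% of 35116 promoter windows. Capitals mark a match on either strand. The *ELF3* stretch is at chr1:202010455-202010484 (+), the *KLF5* stretches at chr13:73054876-73054975 (+, start 1) and chr13:73058905-73059004 (+, start 2), and the *KLF4* stretch at chr9:107489770-107489869 (−).
ELF3: gaatatgcaaatCACCTGgggccaggagcc
KLF5 start 1: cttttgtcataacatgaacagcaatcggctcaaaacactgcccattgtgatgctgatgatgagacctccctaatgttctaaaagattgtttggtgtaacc
KLF5 start 2: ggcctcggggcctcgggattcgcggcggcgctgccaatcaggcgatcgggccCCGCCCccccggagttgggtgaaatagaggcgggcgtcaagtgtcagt
KLF4: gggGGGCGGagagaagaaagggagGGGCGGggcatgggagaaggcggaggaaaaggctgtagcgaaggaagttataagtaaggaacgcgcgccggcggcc

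The *ELF3* window held 1 E-box, which begins 120 bases before the start, and none of the other motifs. The window of *KLF5* start 1 held none of the motifs, and that of start 2 held 2 GC boxes. The *KLF4* window held 4 GC boxes. These are matches of letters and do not show binding.

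*ELF3*, the ETS factor of differentiated epithelia (ENSG00000163435, chromosome 1:202007945-202017183, + strand, GENCODE 44), was at 269 CPM [263, 275] in Ctrl. After treatment it was at 48.0 CPM [45.6, 50.4] at 1-day, 28.7 [26.9, 30.6] at 3-day and 52.8 [49.96, 55.7] at 7-day. The level was thus lower at 3-day than at 1-day and higher again at 7-day. No neighbouring pair of libraries in the order of levels lay within counting error. The order of 1-day and 7-day was reversed under some of the alternatives given at the end. The log2 ratio to Ctrl was -2.48 [-2.56, -2.41] at 1-day, -3.23 [-3.33, -3.13] at 3-day and -2.35 [-2.43, -2.26] at 7-day, and 19.6% of the Ctrl level was measured at 7-day. Its relative *EHF* (ENSG00000135373, chromosome 11:34621093-34663288, + strand) was at 19.8, 12.9, 12.9 and 17.6 CPM. The 7-day ratio of *EHF* was -0.17 [-0.35, 0.01], so a difference from Ctrl was not detectable at this depth, after ratios of -0.61 at both 1-day and 3-day. The ratio of *ELF3* to *EHF* UMIs, which does not depend on how libraries are scaled, was 13.6 in Ctrl and 3.71, 2.22 and 3.002 in the treated libraries in order of time. An antisense transcript of *ELF3* overlaps it and had 199 UMIs in Ctrl and 39 to 98 in treated libraries, against 8057 and 922 to 1581 for *ELF3*. The use of strand in counting is not given in the sources used here.

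*KLF5*, an activator of epithelial proliferation (ENSG00000102554, chromosome 13:73054976-73077541, + strand), had a Ctrl level of 123 CPM [119, 127], followed by 39.5 [37.4, 41.8], 39.9 [37.7, 42.1] and 61.5 [58.4, 64.6] after 1, 3 and 7 days. The 1-day and 3-day levels lay within counting error of each other, and the 7-day level was above both. Its log2 ratios to Ctrl were -1.63, -1.62 and -0.996, the last of which fell just short of 2-fold. *KLF4* (ENSG00000136826, chromosome 9:107484852-107490482, − strand) ran the other way, with 8.13 CPM [7.14, 9.22] in Ctrl and 32.5 [30.6, 34.5], 18.6 [17.1, 20.2] and 13.4 [12.05, 14.9] after 1, 3 and 7 days. It was highest at 1-day and still above Ctrl at 7-day, with log2 ratios of 2.00 [1.80, 2.20], 1.19 [0.98, 1.41] and 0.72 [0.48, 0.97]. The size at 7-day is less certain than its interval. In barcode order the first part of the cells gave 0.99 and the second part 0.41, both outside it. Within a library, the ratio of *KLF5* to *KLF4* UMIs was 15.1 in Ctrl, 1.22 after 1 day, 2.14 after 3 days and 4.57 after 7 days.

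**Figure D1:**
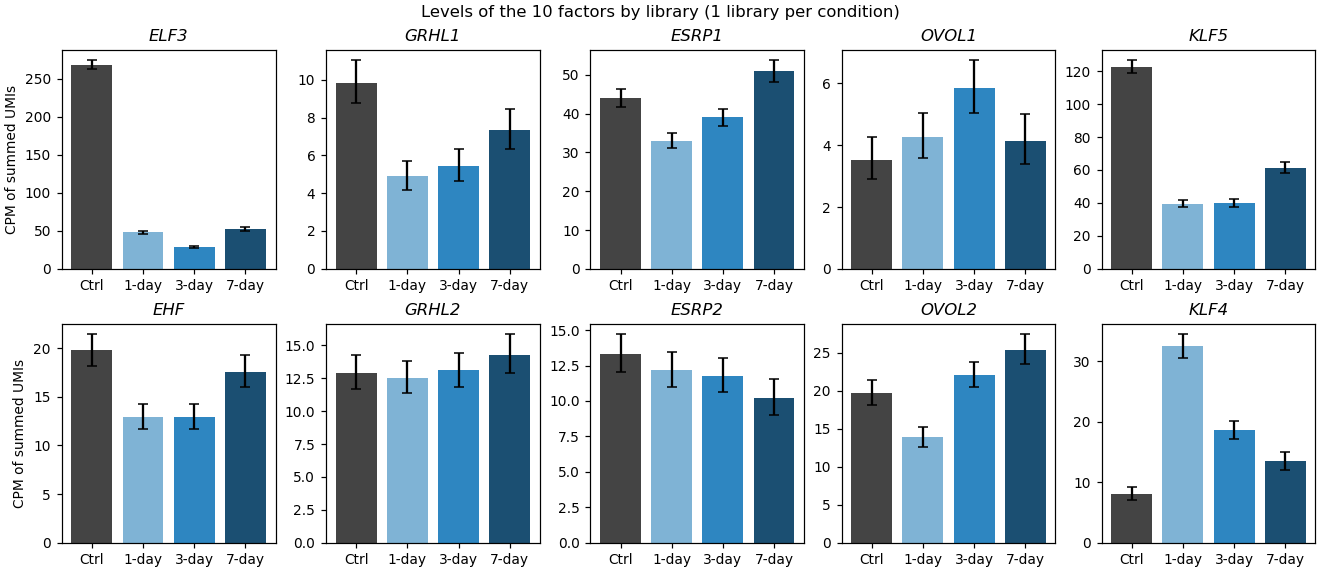
Level of each of the 10 genes in CPM of summed UMIs (vertical axes, a separate scale per gene, from 0) in the Ctrl, 1-day, 3-day and 7-day libraries, 1 library per condition. Bars are the levels and lines the 95% Poisson intervals; *ELF3* and *KLF5* were highest in Ctrl (269 and 123 CPM), *KLF4* at 1-day (32.5 CPM), and *GRHL2* ranged from 12.5 to 14.3 CPM.

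The Grainyhead-like factors, which bind and open epithelial enhancers, differed from each other. *GRHL1* (ENSG00000134317, chromosome 2:9951693-10002277, + strand) was at 9.83, 4.89, 5.44 and 7.33 CPM, and its log2 ratios were -1.01 [-1.30, -0.73], -0.85 [-1.13, -0.58] and -0.42 [-0.70, -0.15]. *GRHL2* (ENSG00000083307, chromosome 8:101492439-101669726, + strand) was at 12.9, 12.5, 13.1 and 14.3 CPM, and all 3 of its intervals included 0, with -0.05 [-0.25, 0.16], 0.02 [-0.18, 0.22] and 0.14 [-0.07, 0.36]. The ratio of *GRHL1* to *GRHL2* UMIs changed by a log2 of -0.96 [-1.31, -0.62] at 1-day, -0.87 [-1.21, -0.54] at 3-day and -0.57 [-0.91, -0.23] at 7-day. *GRHL3*, the third member of the family, had 17, 6, 7 and 10 UMIs.

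*ESRP1* (ENSG00000104413, chromosome 8:94641074-94707466, + strand) was at 43.9 CPM [41.6, 46.4] in Ctrl and 33.1 [31.1, 35.1], 39.0 [36.9, 41.2] and 50.9 [48.2, 53.8] after 1, 3 and 7 days. It was lower than Ctrl at 1-day, with a log2 ratio of -0.41 [-0.53, -0.29], and higher at 7-day, with 0.21 [0.10, 0.32]. *ESRP2* (ENSG00000103067, chromosome 16:68229033-68238102, − strand) was at 13.3, 12.2, 11.8 and 10.2 CPM. Each neighbouring pair in this order lay within counting error, but the 7-day ratio to Ctrl was -0.39 [-0.62, -0.16], and -0.12 when each cell was thinned to an equal number of UMIs. The ratio of *ESRP1* to *ESRP2* UMIs was 3.30 in Ctrl and 4.99 at 7-day, a log2 change of 0.60 [0.35, 0.85]. A same-strand transcript that overlaps *ESRP2* had 191 to 311 UMIs per library, against 259 to 401 for *ESRP2*, so the assignment of its reads is uncertain.

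The OVOL factors, repressors that oppose EMT, had 7-day levels with point values above those of Ctrl. *OVOL1* (ENSG00000172818, chromosome 11:65787063-65797214, + strand) was at 3.53, 4.28, 5.85 and 4.14 CPM from 105 to 188 UMIs, and only the 3-day interval excluded 0, with a log2 ratio of 0.73 [0.38, 1.08]. *OVOL2* (ENSG00000125850, chromosome 20:17956979-18059188, − strand) was at 19.7 CPM [18.1, 21.4] in Ctrl and 13.8 [12.6, 15.2], 22.1 [20.5, 23.8] and 25.4 [23.4, 27.4] after 1, 3 and 7 days. It was thus lowest at 1-day and highest at 7-day, with log2 ratios of -0.51 [-0.69, -0.33], 0.17 [0.01, 0.32] and 0.36 [0.20, 0.53]. The abundant sorting nexin gene *SNX5* overlaps *OVOL2* on the same strand and had 3396 to 5342 UMIs per library, so part of the *OVOL2* count could be split between these genes.

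Of the 10 genes, 3 (*ELF3*, *GRHL1* and *KLF5*) were at least 2-fold lower than Ctrl at 1-day, against 10.6% of the 12694 genes with a mean of at least 1 CPM, and 1 (*KLF4*) was at least 2-fold higher, against 10.2%. At 3-day, 2 (*ELF3* and *KLF5*) were lower, against 8.54%, and *KLF4* was higher, against 10.9%. At 7-day, 1 (*ELF3*) was lower, against 7.85%, and 0 were higher, against 12.9%. The *GRHL1* call depended on the setting. The 1-day count was 2, without *GRHL1*, with median-of-ratios factors (-0.92), in G1 cells (-0.86), in G1 cells called from thinned counts (-0.79) and in the first barcode part of the cells (-0.79). The 3-day count was 3, with *GRHL1*, after thinning (-1.22) and in the second barcode part (-1.10), and the 7-day count rose to 2, with *KLF5*, under 6 alternatives. The median log2 ratio of the 10 genes was -0.46 at 1-day, -0.17 at 3-day and -0.01 at 7-day, and that of all genes tested was -0.07, 0.01 and 0.08. Between 3-day and 7-day the levels of *ELF3*, *KLF5*, *EHF*, *GRHL1*, *ESRP1* and *OVOL2* went up, by log2 ratios of 0.88, 0.62, 0.44, 0.43, 0.38 and 0.20 with intervals above 0, whereas those of *KLF4* and *OVOL1* went down, by -0.47 and -0.50.

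**Figure D2:**
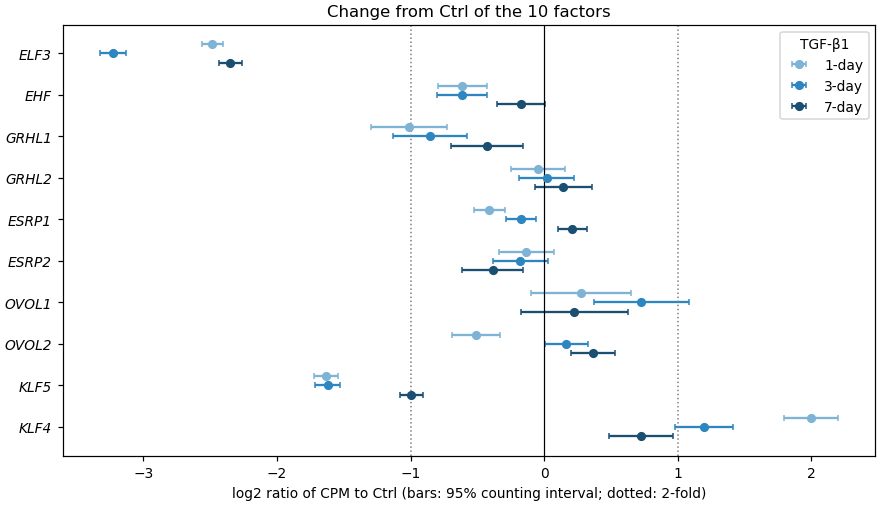
Log2 ratio of CPM to Ctrl (horizontal axis) for each of the 10 genes at 1-day, 3-day and 7-day, with points for the ratio and bars for the 95% counting interval; dotted lines mark 2-fold. *ELF3* lies at -2.48, -3.23 and -2.35, *GRHL2* stays around 0, and *KLF4* is the gene furthest to the right, at 2.00, 1.19 and 0.72.

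The share of cells with at least 1 UMI was compared after each cell was thinned to 18000 UMIs, because depth per cell differed between libraries. *ELF3* was detected in 813 of 844 Ctrl cells (96.3% [94.8, 97.5]). After treatment it was detected in 369 of 900 cells at 1-day (41% [37.8, 44.3]), 219 of 677 at 3-day (32.3% [28.8, 36.0]) and 232 of 549 at 7-day (42.3% [38.1, 46.5]). Before thinning these shares were 97.9%, 55.6%, 50.2% and 64.3%. *KLF5* was detected in 82.0%, 46.1%, 45.5% and 62.8% of thinned cells, and *KLF4* in 12.1%, 40.1%, 28.7% and 20.6% (92.4%, 67.2%, 76.5% and 88.4%, and 20.04%, 58.5%, 50.8% and 38.0%, before thinning). For the less abundant factors fewer cells were positive. Thinned shares of *EHF* were 29.9%, 19.1%, 19.2% and 27.1%, and those of *GRHL1* 16.1%, 7.78%, 7.53% and 9.84% (44.2%, 32.6%, 39.1% and 50.6%, and 25.4%, 14.7%, 21.3% and 26.01%, before thinning). For *GRHL1* the unthinned share at 7-day was thus close to that of Ctrl, whereas the thinned share, which compares equal depths, was lower. *OVOL2* was detected in 30.8%, 21.4%, 29.99% and 34.8% of thinned cells, and *GRHL2* in 20.3%, 19%, 19.9% and 24.95% (42.9%, 35.5%, 55.5% and 59.2%, and 32.05%, 33.5%, 41.8% and 44.3%, before thinning). *OVOL1* was detected in at most 8.71% and *ESRP2* in at most 21.1% of the thinned cells of any library (17.9% and 39.7% before thinning). Thinned shares of *ESRP1* were 51.3%, 40.3%, 46.5% and 56.5%, against 67.2%, 62.9%, 74.8% and 81.9% unthinned. The shares of *ELF3*, *KLF5*, *KLF4* and *ESRP1* followed the order of their CPM levels, apart from *KLF5* at 1-day and 3-day, which lay within counting error on both measures. The culture held no cell type known to lack these genes, so the share that free RNA alone would give was not measured. A cell had a median of 4 of the 10 genes detected in Ctrl and 3 in each treated library, with means of 3.62, 2.63, 2.56 and 3.02.

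**Figure D3:**
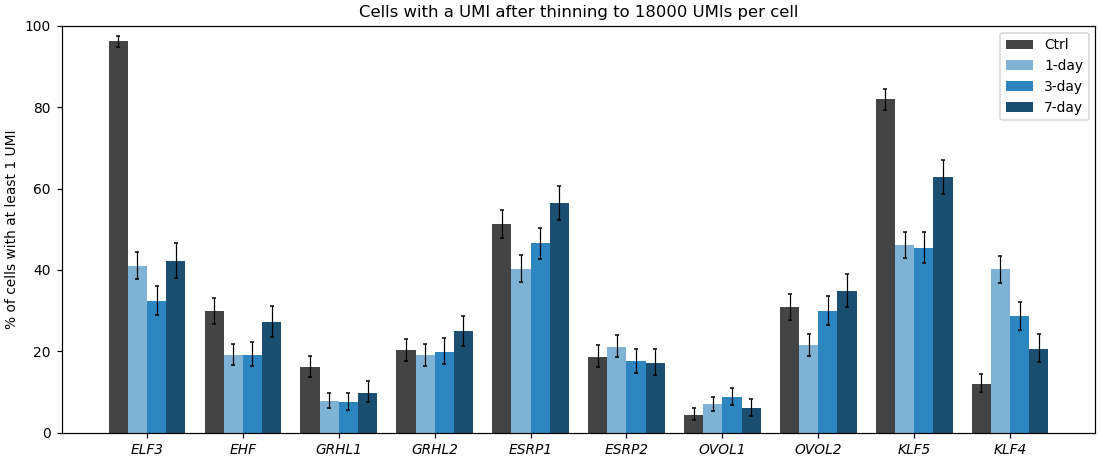
Percent of cells with at least 1 UMI of each gene (vertical axis) after thinning to 18000 UMIs per cell, in the 4 libraries; lines are exact binomial 95% intervals. *ELF3* went from 96.3% in Ctrl to 32.3% at 3-day, and *KLF4* from 12.1% to 40.1% at 1-day.

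Factors paired by family were detected in the same cells about as often as independent detection would give. *KLF5* and *KLF4* were found together in 18.3% of 1-day cells, against 18.5% if independent, and *ELF3* and *EHF* in 12.8% of 7-day cells, against 11.5%. In thinned counts, which are sparse for most of these genes, Pearson correlations of log values between the paired genes stayed within -0.08 and 0.10 in every library. Between genes of different families they ranged more widely at 7-day, from -0.11 (*OVOL2* with *KLF4*) to 0.21 (*EHF* with *OVOL1*, and *ELF3* with *KLF5*). For *ELF3* with *KLF5* they were 0.15, 0.10 and 0.03 in Ctrl, 1-day and 3-day. These genes were singled out after their values were seen, and no test was made.

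Among cells, *ELF3* was the most unevenly spread at 7-day. The variance of its thinned counts over their mean was 2.18 in Ctrl and 2.51, 2.11 and 4.48 after 1, 3 and 7 days, where counting error alone would give 1. For *OVOL1* this ratio was 2.03 at 7-day against 1.31 in Ctrl. The 7-day value rests on few UMIs, since only 33 of 549 thinned cells held any and the highest cell held 7. For *KLF5* the ratio went from 1.62 in Ctrl to 1.39 at 7-day. A cell had a median of 4 *ELF3* UMIs in Ctrl and 0 in each treated library, but the highest cell held 19, 13, 8 and 27. Cells with at least 5 UMIs numbered 405 in Ctrl (48.0% of its cells), 27 at 1-day (3.00%), 8 at 3-day (1.18%) and 22 at 7-day (4.01%). The 10 cells with most *ELF3* UMIs in each library were chosen after their values were seen. They held 3.09% of the *ELF3* UMIs in Ctrl and 8.98%, 11.1% and 17.0% after 1, 3 and 7 days. Libraries differ in their numbers of cells and of *ELF3* UMIs, and the part of this in these shares was not tested. None of the chosen cells was marked as a doublet, and without the 10 of the 7-day library its ratio to Ctrl was -2.59.

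Other epithelial genes were also higher in those 10 cells of the 7-day library than in its other cells. *OVOL1* was at 20.4 CPM against 3.85, a log2 ratio of 2.41 [1.24, 3.39], *GRHL1* at 24.96 against 7.02, *EHF* at 34.0 against 17.3, *KLF4* at 34.0 against 13.1, *KLF5* at 107 against 60.7 and *MAL2*, a membrane trafficking gene of polarised epithelium, at 615 against 253. *SNAI2*, a repressor of epithelial genes, was lower, at 18.2 CPM against 39.5, with a log2 ratio of -1.12 [-2.34, -0.14]. In the 10 cells these values rest on 9 *OVOL1*, 11 *GRHL1* and 8 *SNAI2* UMIs, and the intervals do not cover spread between cells. *ESRP1*, *ESRP2*, *OVOL2* and *GRHL2* differed by less than counting error. The 10 *ELF3*-richest cells of the 1-day and 3-day libraries likewise had higher *EHF* (1.70 and 1.41), *OVOL1* (2.87 and 1.56) and *MAL2* (2.58 and 1.57) on the log2 scale. Other traits of the 7-day cells were not seen in both. *GRHL1* was at 0.27 [-2.79, 2.14] and -0.18 [-3.24, 1.69], *KLF4* at -0.47 and -0.15 and *KLF5* at 0.50 and 0.34, with intervals that included 0, and *SNAI2* was at 0.06 [-0.70, 0.72] at 1-day but lower at 3-day, at 28.8 CPM against 57.8. In Ctrl, the 10 *ELF3*-richest cells had higher *MAL2*, by 0.47 [0.30, 0.63]. *EHF* (-0.26), *GRHL1* (0.01) and *OVOL1* (0.91) had intervals there that included 0. All of these are differences within a library between cells picked by 1 gene, and no test was made on them.

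**Figure D4:**
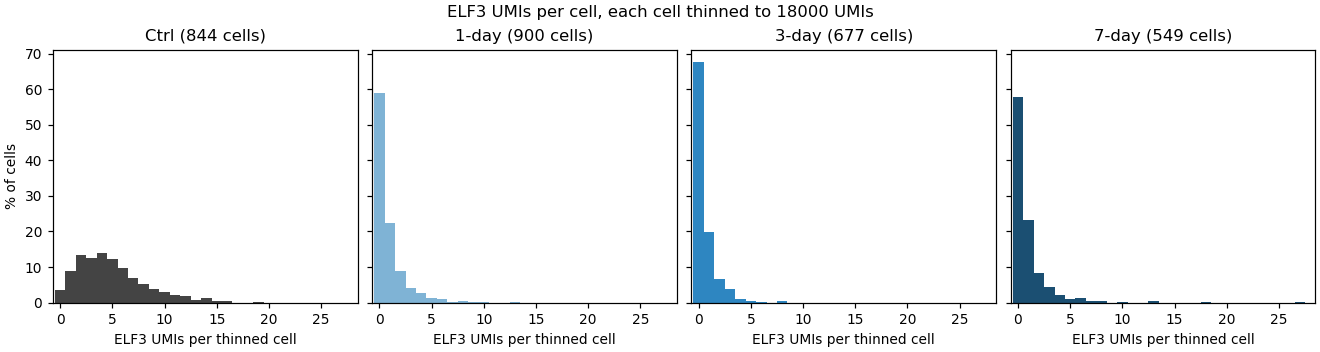
Distribution of *ELF3* UMIs per cell after thinning to 18000 UMIs (horizontal axis) as percent of cells (vertical axis), 1 panel per library with its number of cells. The Ctrl cells centre on a median of 4 UMIs, and the treated libraries pile up at 0 with a tail that reaches 27 UMIs at 7-day.

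The cell cycle makeup differed between libraries, and the share of cells called G1 was 23.7% in Ctrl and 77.9%, 46.2% and 36.7% after 1, 3 and 7 days. Levels were therefore also read within phases called from Seurat's gene lists. *GRHL2* and *ESRP2* were below Ctrl in 1-day G2M cells, at -0.50 [-0.92, -0.10] and -0.52 [-0.93, -0.12]. In 1-day G1 cells they were at 0.06 and 0.03, with intervals that included 0. The 7-day ratio of *ESRP2* was -0.64 in G2M, and -0.40 in G1 and 0.15 in S with intervals that included 0. *ESRP1* was higher in G2M than in G1 cells of every library, by log2 ratios of 0.90, 0.94, 0.62 and 0.53. Within G1 its 1-day ratio to Ctrl was -0.11 [-0.34, 0.13] and within G2M -0.06 [-0.24, 0.12], so the lower level at 1-day was not detectable inside either phase, while at 7-day it was above Ctrl in G1 by 0.53 [0.28, 0.78] and in G2M by 0.16 [0.01, 0.31].

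*OVOL2* showed a difference between phases that was widest at 7-day. It was at 14.5 CPM in G1, 26.9 in S and 33.9 in G2M cells of the 7-day library, against 18.1, 17.6 and 21.8 in Ctrl. The G2M over G1 log2 ratio was 0.27 [-0.04, 0.59] in Ctrl, and 0.34 [0.02, 0.65], 0.61 [0.37, 0.86] and 1.23 [0.94, 1.52] after 1, 3 and 7 days. The 7-day level of *OVOL2* was above Ctrl in S (0.61) and G2M (0.64), and was -0.32 [-0.69, 0.05] in G1. *KLF4* had the opposite lean and was lower in G2M than in G1 in every library, by -0.59, -0.53, -0.74 and -0.48. It stayed above Ctrl within each phase at each time, with G1 ratios of 1.71, 1.15 and 0.58. *ELF3* was lower than Ctrl within every phase, by -2.69, -3.24 and -2.86 in G1 and by -1.97, -3.14 and -2.03 in G2M, and *KLF5* was -1.64, -1.53 and -1.12 in G1. Within each library *ELF3* was higher in G2M than in G1, by 0.13, 0.85, 0.23 and 0.95, with intervals above 0. Of the 10 *ELF3*-richest cells, 8, 4, 6 and 5 were called G2M in Ctrl, 1-day, 3-day and 7-day, against 45.9%, 19.2%, 34.9% and 41.5% of all cells. The comparison of those cells with the others was not matched for phase.

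**Figure D5:**
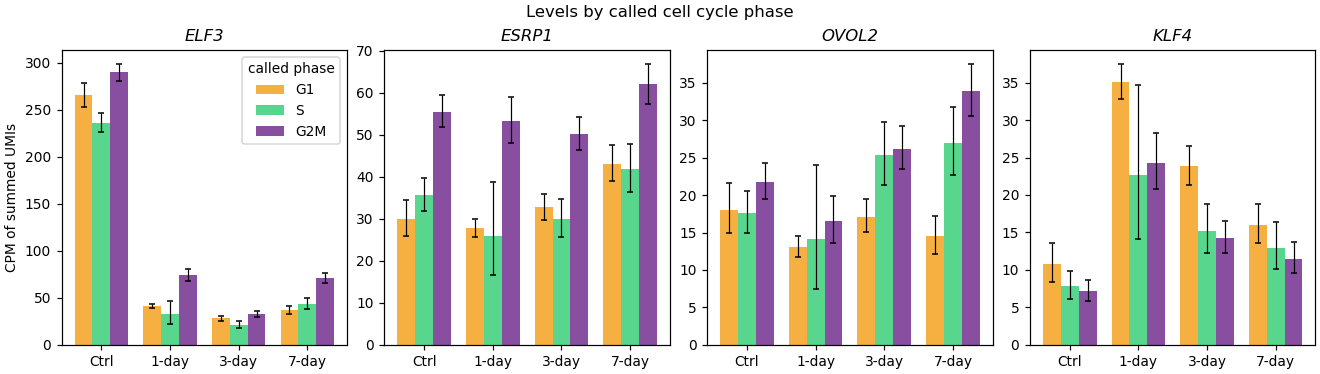
Level in CPM of summed UMIs (vertical axes, from 0, a scale per gene) of *ELF3*, *ESRP1*, *OVOL2* and *KLF4* in cells called G1, S and G2M, by library; lines are 95% Poisson intervals. *OVOL2* at 7-day went from 14.5 CPM in G1 to 33.9 in G2M, and *KLF4* was highest in G1 cells of each library.

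Counts for the lists that follow are of genes at least 2-fold from Ctrl at 1-day, 3-day and 7-day. They are to be read against 10.2%, 10.9% and 12.9% of all genes tested that were higher and 10.6%, 8.54% and 7.85% that were lower. The filter, a mean of at least 1 CPM over the 4 libraries, favours genes that rise. *KLF11*, *KLF12*, *RBM24* and *SNAI1* passed with 0.73, 0.30, 0.10 and 0.17 CPM in Ctrl. *KLF15*, at 1.13 CPM in Ctrl and lower after treatment, did not pass. The same filter was used for all genes. Of 18 relatives, 13 passed the level filter, of which 6 were at least 2-fold higher at each treated time and 0, 1 and 1 were lower, with median log2 ratios of 0.79, 0.61 and 0.46. In G1 cells alone the 1-day counts were 3 higher and 1 lower. *SPDEF*, an ETS factor of secretory epithelium, was at 7.47, 15.6, 34.0 and 30.2 CPM. The Krüppel-like genes *KLF6* (38.3, 94.5, 113 and 160 CPM), *KLF7* (9.20, 49.8, 40.7 and 35.8) and *KLF10*, a gene known to be induced by TGF-β (7.27, 34.6, 33.1 and 19.5), were also higher in each treated library. Of 16 other epithelial lineage factors, 10 passed, of which 2, 1 and 4 were higher and 1, 2 and 2 lower, and the median log2 ratios were 0.39, 0.52 and 0.36. In G1 cells alone 2 were lower at 1-day. *FOXA2* was at 79.7, 20.03, 14.7 and 17.1 CPM, whereas its relative *FOXA1* was at 16.04, 12.4, 27.9 and 35.3. *MECOM* (14.7, 42.9, 51.2 and 44.7 CPM) was above Ctrl at every time.

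Among 17 other splicing regulators, 15 passed, of which 2, 1 and 1 were at least 2-fold higher and 1, 2 and 1 lower, with median log2 ratios of -0.14, -0.05 and -0.15. In G1 cells alone 2 were lower at 1-day, 2 were higher at 3-day, and 3 were higher and 2 lower at 7-day. *RBM47*, an RNA-binding protein of epithelial cells, was at 158, 59.0, 61.7 and 89.5 CPM, with a drop and partial return like those of *KLF5*. *HNRNPM*, a splicing factor that competes with ESRP1 on *CD44*, went from 345 CPM in Ctrl to 198 at 7-day, and *RBFOX2* from 36.2 to 60.0. The totals of 16 genes that ESRP proteins are known to splice were at least 2-fold higher for 2, 4 and 3 genes and at least 2-fold lower for 0, with median log2 ratios of 0.22, 0.27 and 0.48. Smaller differences ran both ways, and *CTNND1*, singled out after its values were seen, was at -0.43, -0.62 and -0.45, with intervals below 0. *CD44* was at 47.7, 41.9, 137 and 218 CPM. These are gene totals from 3′ counts, and isoforms were not measured.

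Junction and membrane genes, many of them targets of GRHL2 and ELF3, were measured in every library. All 26 passed, of which 3, 4 and 4 were at least 2-fold lower and 2, 2 and 1 higher, with median log2 ratios of 0.36, 0.34 and 0.16, and in G1 cells alone 2 were higher at 7-day. As shares of 26, the lower counts lay above those of all genes tested at each time, though only slightly at 1-day, and the higher counts lay below. The list medians went the other way and lay above those of all genes tested, which were -0.07, 0.01 and 0.08. Each count is only 1 to 4 genes, and the difference from all genes was not tested. E-cadherin, *CDH1*, was at 75.7, 119, 94.6 and 81.7 CPM and *EPCAM* at 331, 357, 361 and 297. *MAL2* (704, 176, 136 and 259 CPM) and *ERBB3* (42.0, 15.5, 10.5 and 17.3) were lower throughout, and *AP1M2*, an adaptor of basolateral sorting, was at 196, 154, 110 and 66.7.

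Of 12 repressors of epithelial genes, 5 passed, of which 2 were at least 2-fold higher at each time and 0, 1 and 1 lower. *SNAI2* was at 3.80, 50.7, 57.5 and 39.1 CPM, with log2 ratios of 3.74, 3.92 and 3.36 [3.08, 3.65]. *ZEB1*, the known counterpart of GRHL2 and OVOL2, had 1, 8, 14 and 14 UMIs, and *ZEB2* had 6, 8, 13 and 18. The 7-day ratio of *ZEB1* to Ctrl was 4.05 [1.33, 9.45] and rests on 1 Ctrl UMI. *TCF4* was lower at each time, at 48.1, 26.2, 19.4 and 16.2 CPM.

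The genes with the course most like that of each abundant factor were found by the distance between their log2 ratios at the 3 times, over the 4 libraries and 5475 genes. For *ELF3* these were *RDH10*, a retinol dehydrogenase, *GPAT3*, which makes glycerolipids, and *CMBL*, at distances of 0.336, 0.451 and 0.491. For *KLF5* they were *RP11-38M8.1* (0.175), *RFFL* (0.237) and *MSI2* (0.321). For *ESRP1* the closest was *FZD3* (0.054), followed by *ISCA1* and *LMAN1*, and for *OVOL2* it was *ZNF598* (0.031), followed by *FAM189B* and *DUS4L*.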

How the data were processed

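Counts of UMIs for each gene in each cell were deposited. The authors made them with Cell Ranger 2.0.1 on GRCh38, per the submitters' processing notes, and the annotation release and use of strand are not given in the sources used here. The 10 genes and the gene lists were chosen with earlier results of these data known. The matrices were complete for 3170 of the 10710 listed cells, and an incomplete last cell was dropped. Of these, the 3144 with more than 200 genes and at most 20% mitochondrial UMIs were retained. Scrublet (scanpy 1.11.5) marked 40 cells (1.27%) as doublets, which were kept except in 1 alternative, and 23 barcodes occurred in more than 1 library. CPM have exact Poisson and log2 ratios exact conditional intervals, and shares have exact binomial intervals. Ratios of paired genes have Wald intervals. Conditions have 1 library each and were not tested. Cells with under 18000 UMIs were too shallow to thin (89 in Ctrl, and 37, 28 and 20 after 1, 3 and 7 days). Phases were called with scanpy from the gene lists of Seurat 5.3.0 (R 4.3.3). This and the other steps ran in Python 3.11.15. On counts simulated with counting error alone, the interval held the true ratio for 94.5% of changed genes. Spread between cells or libraries was not simulated, so coverage under such spread was not tested.

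Named genes were the 10 factors, from each of 6 lists up to 4 genes of mean at least 10 CPM with the largest 7-day ratio, 7 further genes (*CDH1*, *EPCAM*, *ZEB1*, *ZEB2*, *SNAI2*, *GRHL3* and *RBM47*), and the 3 genes nearest in course to each factor of mean at least 20 CPM. Some of these genes are left out of the text.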

Additional observations from a re-analysis of the deposited data

Results flagged for a closer look

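*ESRP1* and *OVOL2* differed from Ctrl in opposite directions at different times, with counting intervals on both sides of 0. The log2 ratio of *ESRP1* to Ctrl was -0.41 at 1-day, -0.17 at 3-day and 0.21 at 7-day, and that of *OVOL2* was -0.51, 0.17 and 0.36. In G1 cells alone *ESRP1* was at -0.11, 0.13 and 0.53, and *OVOL2* was at -0.47, -0.08 and -0.32, so the 3-day value of *ESRP1* and the 3-day and 7-day values of *OVOL2* had the other sign. With 1 library per time the difference between times was not tested against replicate spread.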

How the results depend on the processing

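No paired analysis was possible because no condition has replicates. Each of 30 log2 ratios was recomputed under 10 alternatives. The alternative without the 10 cells with most *ELF3* UMIs altered the 7-day library only. Its ratios at the earlier times equal the original ones by construction and are no evidence of agreement. With these included, 268 of 300 values stayed inside the original interval. The sign changed in 18 of them, all for *GRHL2*, *ESRP1*, *ESRP2*, *OVOL1* or *OVOL2*, including *OVOL2* at 7-day in G1 cells (-0.32) and *ESRP2* at 1-day after thinning (0.19). No ratio of 2-fold or more reversed. The order of *ELF3* at 1-day and 7-day depended on the setting. Its 1-day and 7-day ratios were -2.69 and -2.86 in G1 cells and -2.61 and -2.74 in G1 cells called from thinned counts. They were -2.43 and -2.50 in the second barcode part, and -2.48 and -2.59 without the 10 cells with most *ELF3* UMIs. With median-of-ratios factors they were -2.401 and -2.406. The other alternatives kept 7-day above 1-day. The number of the 10 genes at least 2-fold lower at 7-day was 2 instead of 1, with *KLF5* added, when doublets were left out, with median-of-ratios factors, in G1 cells, in G1 cells called from thinned counts, in the later of both barcode parts of the cells, and without the 10 cells with most *ELF3* UMIs. The barcode parts, thinned G1 calls and removal of *ELF3*-rich cells were chosen after seeing the data. *GRHL1* at 1-day no longer reached 2-fold with median-of-ratios factors, in G1 cells by either call and in the first part of the cells. In G1 cells 8 counts over the gene lists moved by over 1.5 times, as given beside them. Its small counts, 161 to 295 UMIs, limit that call.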

Other observations

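Several less abundant genes of the lists, chosen here after their values were seen, also differed from Ctrl. *KLF11*, a TGF-β-inducible repressor, went from 0.73 CPM in Ctrl to 5.99 at 7-day (22 and 152 UMIs), and *KLF12* from 0.30 to 2.36. *KLF2* went the other way, from 5.30 to 1.22 CPM, with a log2 ratio of -2.12 [-2.72, -1.56]. The splicing regulator *RBM24* had 3 UMIs in Ctrl and 46, 86 and 83 in the treated libraries, with a 7-day log2 ratio of 5.03 [3.43, 7.34]. *SNAI1*, the relative of *SNAI2*, had 5, 35, 56 and 41 UMIs.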
